A study of Mus musculus with 6 samples.

Results

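A set of 10 genes that move fatty acids into cells or carry them inside cells was followed in the ureteric epithelium of the mouse kidney: the 6 fatty acid transport proteins Slc27a1 to Slc27a6, the scavenger receptor Cd36 and the fatty acid binding proteins Fabp3, Fabp4 and Fabp5. They were taken by symbol from the 21456 gene symbols with values, and all 10 had values. They were selected on results of these same libraries, in which Slc27a6 stood out, so their differences between tip and stalk are given as descriptions with no p-value. The tip cells carried both reporters, Wnt11RFP+;Hoxb7GFP+, and the stalk cells carried only the green one, Wnt11RFP-;Hoxb7GFP+. Both groups came from developing kidneys of CFW mice at stage E16.5, with 3 libraries each, and all 6 libraries share the Hoxb7GFP reporter that marks ureteric epithelium. Wnt11 marks the growing tips of that epithelium, and the stalk behind them forms the collecting ducts and the ureter. The labels do not say whether the libraries are separate animals, litters or pools, so spread and p-values here cover only these libraries, and the spread may be technical.

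Long-chain fatty acids reach cells bound to albumin or released from lipoproteins by lipoprotein lipase. Cd36 and the Slc27 proteins (FATP family) favour their entry at the membrane, and Slc27 proteins also couple them to coenzyme A, which traps them in the cell. Fabp proteins then carry them through the cytosol to oxidation, storage or nuclear receptors such as Pparg. In the adult kidney, fatty acid oxidation is known mainly from the proximal tubule, which arises from a different lineage than the ureteric bud.

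Values are RPKM, read counts scaled by the authors to transcript length and library size, summed over the rows of a symbol. Sequencing depth is unknown, since the files give no read counts, so no counting interval is given. The RPKM of a library summed to between 345123 and 366035, and 12194 to 12472 symbols reached 1 RPKM. Markers followed the labels in every library: the 7 tip marker genes summed to 1030 to 1810 RPKM in tip against 48.8 to 113 RPKM in stalk, and the 8 marker genes of collecting duct principal and intercalated cells to 17.9 to 37.1 RPKM in tip against 892 to 1343 RPKM in stalk. The reporter of Wnt11 defines the groups, so its own difference is no check of the labels. The other markers were listed with earlier results of these libraries known, so they describe the groups and are no independent check. Wnt11 held a large part of the tip sums, at 930, 423 and 726 RPKM in tip replicates 1 to 3. The other tip markers, Ret, Etv4, Etv5, Gfra1, Sox9 and Lgr5, were each higher in all tip libraries than in all stalk libraries. All 10 ureteric epithelium markers were present in both groups, but not at matched levels. By limma, 5 were higher in stalk and 2 higher in tip, where 48.6% of all tested symbols were called. Krt8 averaged 151 RPKM in tip against 717 RPKM in stalk, and Lhx1 15.7 RPKM in tip against 2.66 RPKM in stalk. Replicate 2 of tip and replicate 1 of stalk stood apart from their groups on the second principal component, which held 9.21% of the variance. In such bulk samples, fewer cells of a type and less RNA per cell cannot be told apart.

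Fabp4 and Fabp5 lie on chromosome 3 near each other and differed in opposite directions, so it matters that reads can tell them apart. The stretch of the coding sequences around their longest shared run is printed here from GENCODE M21 transcripts, bases 75 to 146 of Fabp4 and bases 81 to 152 of Fabp5 counted from the A of the start codon, with the 12 shared bases in capitals.
Fabp4: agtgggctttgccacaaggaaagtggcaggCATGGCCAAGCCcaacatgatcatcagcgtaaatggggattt
Fabp5: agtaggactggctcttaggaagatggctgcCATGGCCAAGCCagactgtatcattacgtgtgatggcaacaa
No run longer than 12 bases was identical between the pair, in coding sequences of 396 and 405 bases. The promoters of Slc27a3 and Slc27a4, a pair of Slc27 genes that also differed in opposite directions, are printed from RefSeq with the motif letters found in them in capitals. The windows run from 250 bases before to 50 bases after the annotated start and lie at chr3:90389889-90390188 on the minus strand and at chr2:29802384-29802683 on the plus strand of GRCm38.p6.
Slc27a3: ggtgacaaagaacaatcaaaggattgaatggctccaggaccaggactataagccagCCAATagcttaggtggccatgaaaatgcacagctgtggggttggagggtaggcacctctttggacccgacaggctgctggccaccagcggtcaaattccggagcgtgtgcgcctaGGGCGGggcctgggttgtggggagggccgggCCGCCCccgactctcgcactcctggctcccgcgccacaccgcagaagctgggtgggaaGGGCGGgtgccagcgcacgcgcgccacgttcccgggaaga
Slc27a4: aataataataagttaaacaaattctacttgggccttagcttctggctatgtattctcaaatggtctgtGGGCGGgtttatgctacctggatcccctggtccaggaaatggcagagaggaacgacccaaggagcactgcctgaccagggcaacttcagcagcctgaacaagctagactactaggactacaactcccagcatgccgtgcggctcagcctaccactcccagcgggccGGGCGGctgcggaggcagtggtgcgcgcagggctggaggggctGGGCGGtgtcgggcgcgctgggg
Each window held 3 copies of the GC box GGGCGG, read on both strands. At least 1 copy was found in 35.7% of the 32851 RefSeq promoters of that length. The Slc27a3 window also held 1 CCAAT box, found at least once in 37.4% of promoters, and neither held TATAAA or the nuclear receptor half-site AGGTCA, found at least once in 13.6% and 16.3% of promoters. Of the 6 genes with a promoter entry, Slc27a2 and Cd36 each had 1 AGGTCA half-site.

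Slc27a6, the transport protein FATP6, described mainly from human heart, differed most between the groups. It lies at chr18:58556257-58612773 on the plus strand and is a single row of the table. It stood at 42.4, 23.6 and 35.8 RPKM in tip replicates 1 to 3, against 0.374, 1.34 and 2.30 RPKM in stalk replicates 1 to 3. Every tip library was far above every stalk library, and the stalk values varied among themselves more in proportion than the tip values did. Slc27a6 averaged 33.9 ± 9.53 RPKM in tip and 1.34 ± 0.963 RPKM in stalk (SD, n = 3 each), a ratio of 25.4. On the log2(RPKM + 1) scale the difference, tip minus stalk, was 3.95 (SE 0.44). The ratio rests on very low stalk values: without replicate 3 of stalk it was 39.6, and without replicate 1 of stalk it was 18.6. The 6 markers of heart and skeletal muscle summed to 0.782 to 1.76 RPKM in tip and 0.598 to 1.09 RPKM in stalk, and none reached the minimum for testing. Myh6, Ckm and Actn2 were under 0.1 RPKM in every library. Myh7, a myosin of heart and slow muscle, had 0.681, 0.543 and 0.319 RPKM in tip, against 0.115, 0.121 and 0.135 RPKM in stalk, and with Myh6 was 1 of 2 muscle markers with all tip libraries above all stalk libraries. With no minimum for testing, 1 muscle marker was called higher in tip by limma. The part of muscle cells in the Slc27a6 level was not tested.

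**Figure D1:**
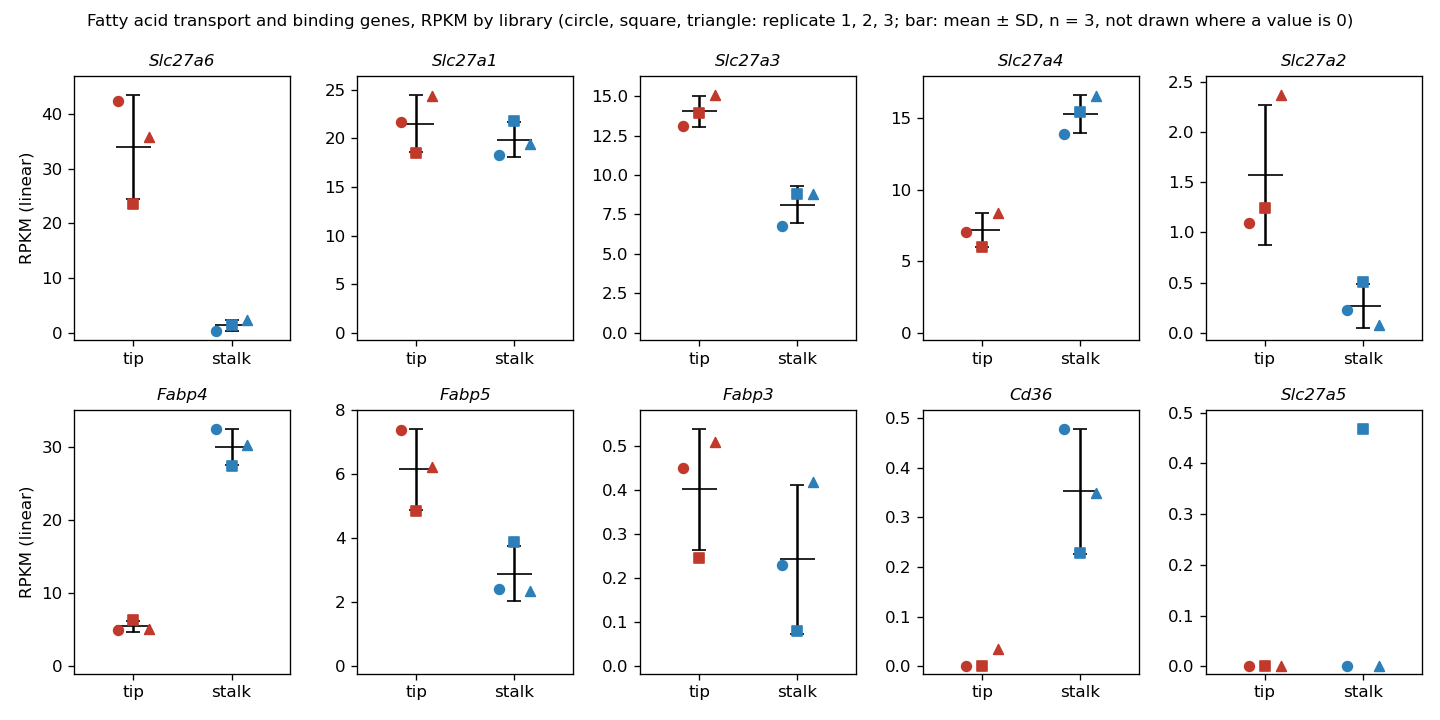
RPKM of the 10 fatty acid transport and binding genes in each tip library (left of each panel) and stalk library (right), with a separate linear axis per gene and bars for the mean and SD of 3 libraries. Slc27a6 lies between 23.6 and 42.4 RPKM in tip and at or below 2.30 RPKM in stalk, while Fabp4 shows the opposite order.

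The remaining Slc27a6 signal in stalk was compared with that of known tip genes. As a percent of its tip mean, Slc27a6 stood at 1.10, 3.94 and 6.78% in stalk replicates 1 to 3. Wnt11, the signal whose promoter drives the red reporter, stood at 0.276, 1.25 and 3.54%, and Ret, the receptor that drives branching, at 1.64, 3.89 and 8.43%. Slc27a6 thus lay above Wnt11 and near Ret in all 3 stalk libraries. The transcription factor Etv4, which acts downstream of Ret, had 0.689, 2.95 and 5.19%, and the GDNF co-receptor Gfra1 was retained more, at 13.2, 19.0 and 22.0%. Slc27a6, Wnt11, Ret, Etv4, Etv5 and Gfra1 were all lowest in replicate 1 among the stalk libraries and in replicate 2 among the tip libraries. The other two tip markers differed from that order: the progenitor transcription factor Sox9 was highest in replicate 1 of stalk, at 39.7, 15.1 and 18.9% of its tip mean, and the Wnt pathway receptor Lgr5, at 1.71, 8.24 and 6.67%, was lowest in replicate 3 among the tip libraries. The order of the first genes was not particular to tip genes. Slc27a1, whose groups overlapped, and Slc27a4, higher in stalk, had it too. Among the ureteric epithelium markers, Hoxb7, Gata3, Emx2, Pax2, Lhx1 and Wnt9b had it, and Cdh1, Krt8, Krt18 and Epcam did not. How far the share of tip cells in each library sets the Slc27a6 level was not tested.

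**Figure D2:**
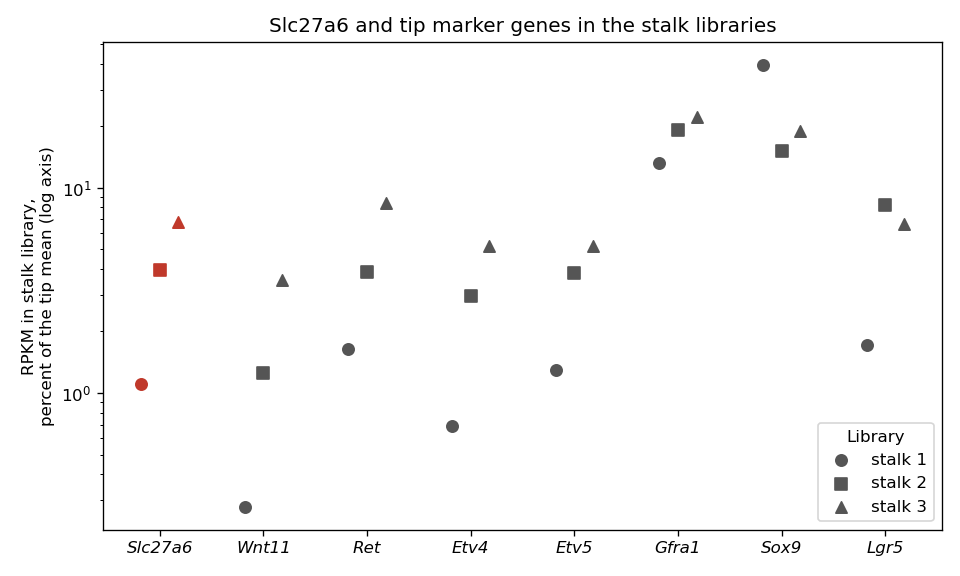
RPKM of Slc27a6 and the 7 tip marker genes in each stalk library, as a percent of the mean of the 3 tip libraries, on a log axis, with a symbol for each stalk replicate. Stalk 1 is the lowest point for each gene except Sox9, where it is the highest at 39.7%, and Slc27a6 at 1.10 to 6.78% lies within the spread of the tip markers.

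The other transporters followed no common direction. Slc27a1 (FATP1), the insulin-responsive transporter of muscle and fat, lies at chr8:71568882-71587302 on the plus strand and had similar levels in both groups. It had 21.7, 18.5 and 24.4 RPKM in tip, against 18.3, 21.8 and 19.4 RPKM in stalk. The groups overlapped, with means of 21.5 ± 2.93 RPKM in tip against 19.8 ± 1.80 RPKM in stalk (SD, n = 3 each) and a log2 difference of 0.11 (SE 0.13). Slc27a3 (FATP3), which acts mainly as an acyl-CoA synthetase inside cells, lies at chr3:90385239-90389938 on the minus strand. It had 13.1, 13.9 and 15.1 RPKM in tip, against 6.78, 8.79 and 8.78 RPKM in stalk. All tip libraries were above all stalk libraries, at a ratio of 1.73 and a log2 difference of 0.73 (SE 0.12). Slc27a4 (FATP4), a synthetase for very long chains that the skin barrier and the gut need, lies at chr2:29802634-29817522 on the plus strand and showed the reverse. It had 7.08, 6.01 and 8.40 RPKM in tip, against 13.9, 15.4 and 16.6 RPKM in stalk. The stalk values were all higher, the stalk mean being 2.13 times the tip mean, with a log2 difference of -1.0 (SE 0.14).

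Slc27a2 and Slc27a5 were low in both groups. Slc27a2 (FATP2), a very long chain synthetase of peroxisomes and endoplasmic reticulum that is abundant in proximal tubule and liver, lies at chr2:126552407-126588243 on the plus strand. It had 1.09, 1.24 and 2.37 RPKM in tip, against 0.223, 0.509 and 0.0778 RPKM in stalk. All tip values were higher, but the ratio of means, 5.80, rests on very low values and was 10.4 without replicate 2 of stalk. With a mean of 0.918 RPKM over all libraries the gene fell below the minimum of 1 RPKM for testing, and it passed that minimum when any one stalk library was left out. The 10 proximal tubule markers summed to 4.61 to 6.92 RPKM in tip and 2.34 to 17.1 RPKM in stalk. Neither of the 2 tested ones was called different, where 48.6% of all tested symbols were called. Without replicate 1 of stalk, 1 was called higher in stalk, and with no minimum for testing 1 of the 10 was called higher in tip. Slc22a8, an organic anion transporter of the proximal tubule, differed in the direction of Slc27a2, with 1.13, 0.926 and 0.896 RPKM in tip, against 0.0885, 0.0859 and 0.155 RPKM in stalk. It was the only listed marker with all tip libraries above all stalk libraries, and the part of proximal tubule cells in the Slc27a2 level was not tested. Slc27a5 (FATP5), the bile acid coenzyme A ligase of liver, at chr7:12988346-12998192 on the minus strand, was listed at 0 in 5 libraries and at 0.468 RPKM in replicate 2 of stalk.

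Summed over the family, Slc27 genes gave 85.4, 63.3 and 86.0 RPKM in tip, against 39.6, 48.3 and 47.1 RPKM in stalk. The tip sums were all higher, and the excess lay in Slc27a6. Slc27a6 made up 49.6, 37.3 and 41.6% of the sum in tip and 0.946, 2.77 and 4.88% in stalk. Without it the sums were 43.0, 39.7 and 50.2 RPKM in tip and 39.2, 47.0 and 44.8 RPKM in stalk, and the groups overlapped.

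**Figure D3:**
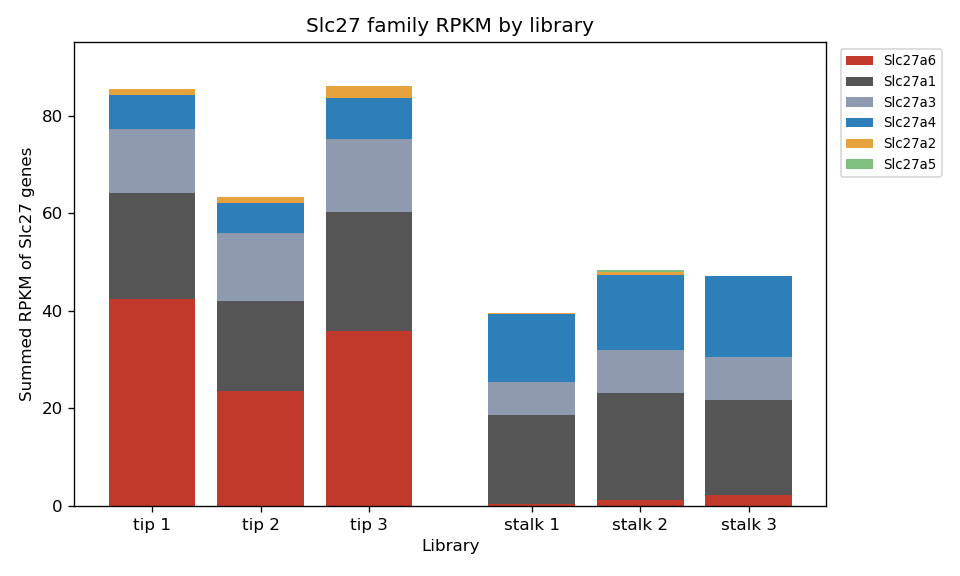
Summed RPKM of the 6 Slc27 genes in each tip library (left) and stalk library (right), stacked by gene on a linear axis. The tip bars reach 63.3 to 86.0 RPKM with a large Slc27a6 segment, and the stalk bars reach 39.6 to 48.3 RPKM with almost none.

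Among the genes for binding and uptake, Fabp4 had the highest level in stalk and Fabp5 was higher in tip. Fabp4, the binding protein of adipocytes, macrophages and capillary endothelium, lies at chr3:10204088-10208576 on the minus strand. It had 4.98, 6.34 and 5.14 RPKM in tip, against 32.4, 27.4 and 30.2 RPKM in stalk. The groups lay far apart with little spread inside either, at 5.49 ± 0.741 RPKM in tip against 30.0 ± 2.49 RPKM in stalk (SD, n = 3 each). The stalk mean was 5.47 times the tip mean, and the log2 difference was -2.26 (SE 0.11).

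Fabp5, the epidermal binding protein, which many epithelia carry and which can deliver ligands to Ppard, lies at chr3:10012548-10016607 on the plus strand. It had 7.38, 4.86 and 6.22 RPKM in tip, against 2.43, 3.88 and 2.36 RPKM in stalk. The groups did not overlap, though the lowest tip and highest stalk library were close, at a ratio of 2.13 and a log2 difference of 0.89 (SE 0.23). Its level is uncertain, since 5 other annotated genes share a run of at least 50 bases with its coding sequence, and 2 of them had values. The larger, Gm6166, had 18.8, 13.9 and 9.04 RPKM in tip and 7.86, 5.54 and 8.96 RPKM in stalk. Fabp5 and these copies summed to 26.7, 18.8 and 15.4 RPKM in tip, against 10.3, 9.43 and 11.9 RPKM in stalk, again with no overlap.

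Fabp3 and Cd36 were near the bottom of the range. Fabp3, the heart binding protein, at chr4:130308595-130315463 on the plus strand, had 0.451, 0.246 and 0.508 RPKM in tip, against 0.231, 0.0806 and 0.418 RPKM in stalk. The groups overlapped, and the processed copy Fabp3-ps1, which shares a run of at least 50 bases, had 0.882 to 3.82 RPKM in tip and 2.16 to 5.92 RPKM in stalk, above Fabp3 itself in every library. Cd36, the fatty acid receptor of capillaries, fat and macrophages, lies at chr5:17781690-17888801 on the minus strand. It was listed at 0, 0 and 0.0345 RPKM in tip, against 0.478, 0.228 and 0.350 RPKM in stalk. The stalk libraries were all higher, at levels under 1 RPKM, spread over 4 rows of which the leading one held 33.2% of the sum. In that leading row alone the groups overlapped, with 0.00122 RPKM in stalk replicate 1 and 0.0203 RPKM in tip replicate 3.

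The Fabp genes together gave 12.8, 11.4 and 11.9 RPKM in tip, against 35.1, 31.4 and 33.0 RPKM in stalk. Fabp4 held 38.9, 55.4 and 43.3% of that sum in tip and 92.4, 87.4 and 91.6% in stalk. The rank order of the genes by mean RPKM therefore differed between the groups. In tip it ran Slc27a6, Slc27a1, Slc27a3, Slc27a4, Fabp5, Fabp4, Slc27a2, Fabp3, Cd36 and Slc27a5, and these neighbours overlapped in their libraries: Slc27a6 with Slc27a1, Slc27a4 with Fabp5, Fabp5 with Fabp4, and Cd36 with Slc27a5. In stalk it ran Fabp4, Slc27a1, Slc27a4, Slc27a3, Fabp5 and Slc27a6 with no overlap between neighbours, followed by Cd36, Slc27a2, Fabp3 and Slc27a5, where each neighbouring pair overlapped, Slc27a6 with Cd36 included.

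Most endothelial markers differed between the groups in the same direction as Fabp4 and Cd36. Of 12 such markers, all had values, 10 were tested, 9 were higher in stalk and 1, Eng, was higher in tip, by limma with Benjamini-Hochberg adjustment. Over all tested symbols, 48.6% were called, with 22.5% higher in stalk. The Eng call was lost without replicates 1 or 3 of tip or without any one stalk library, and 8 markers were higher in stalk without replicate 1 or replicate 3 of stalk. The markers summed to 34.7 to 37.5 RPKM in tip and 74.4 to 118 RPKM in stalk. Most of the tip sum came from Egfl7 and Eng, which differed little. Egfl7 averaged 18.1 RPKM in tip against 25.1 RPKM in stalk, and Eng 9.59 RPKM in tip against 7.07 RPKM in stalk. Pecam1, the endothelial adhesion molecule, had 0.815, 1.05 and 0.709 RPKM in tip, against 8.69, 6.93 and 6.54 RPKM in stalk. None of the 12 was under 0.1 RPKM in every library. Gpihbp1, which anchors lipoprotein lipase on capillaries, was listed at 0, 0.240 and 0.223 RPKM in tip, against 1.90, 1.25 and 0.230 RPKM in stalk. The endothelial part in the Fabp4 and Cd36 levels was not tested.

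Summed markers of the other cells known for Fabp4 overlapped between the groups. The 3 of 6 adipocyte markers with values summed to 0.00620 to 0.172 RPKM in tip and 0 to 0.0861 RPKM in stalk, with Adipoq and Lep under 0.1 RPKM in every library. The 8 of 10 macrophage markers with values summed to 12.8 to 15.3 RPKM in tip and 12.2 to 19.5 RPKM in stalk. Cx3cr1 and C1qa were under 0.1 RPKM in every library, and of the 3 tested macrophage markers 1 was higher in tip and 1 in stalk, or 2 in stalk without replicate 1 of stalk. With 3 tested macrophage markers, nothing is read from the count beside 48.6% called over all symbols. Most of the summed level came from Cd68, a lysosomal protein, with 10.7, 9.14 and 8.60 RPKM in tip, against 4.71, 5.94 and 5.84 RPKM in stalk, and from Ptprc. Laptm5, a lysosomal protein of blood cells, differed in the direction of Fabp4, with 0.251, 0.0368 and 0.0149 RPKM in tip, against 2.93, 4.70 and 7.47 RPKM in stalk. The part of macrophages in the Fabp4 level was not tested. The urothelial markers, of cells that line the ureter, also went with stalk: 5 of 5 tested were higher there, with sums of 0.247 to 0.815 RPKM in tip and 204 to 473 RPKM in stalk. Among all tested symbols, 22.5% were higher in stalk.

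**Figure D4:**
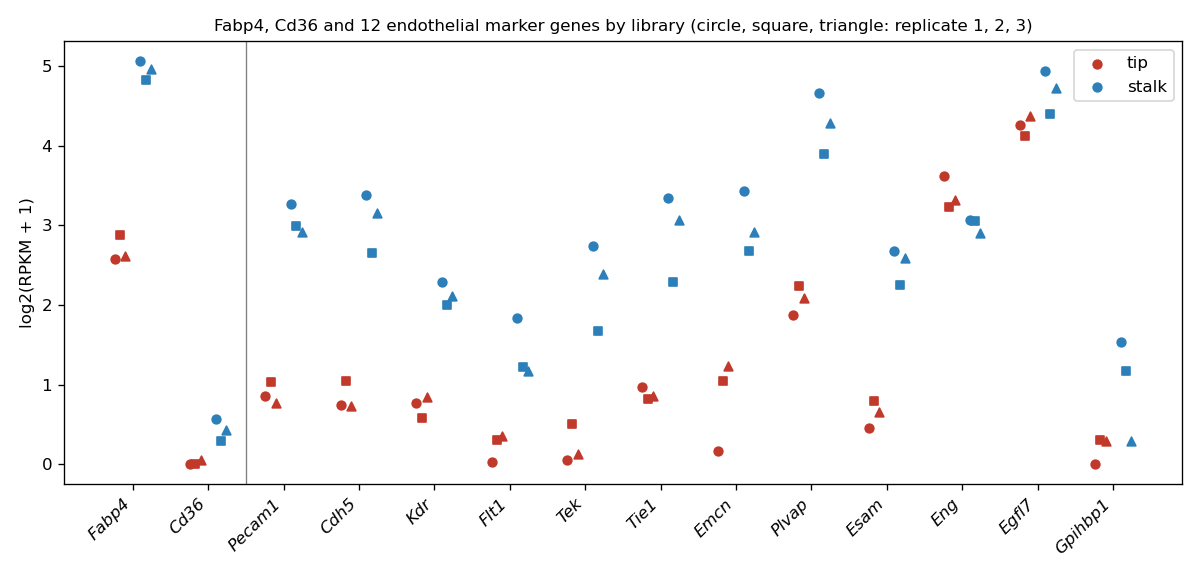
Level of Fabp4, Cd36 and 12 endothelial marker genes as log2(RPKM + 1) in each library, tip points left of stalk points for each gene. Fabp4, Cd36 and 10 of the 12 markers have all stalk libraries above all tip libraries, Eng has the reverse, and Gpihbp1 overlaps.

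The genes whose profile over the 6 libraries was nearest to each leading gene were ranked by the root mean square difference of log2(RPKM + 1), each gene centred on its own mean. For genes that differ between tip and stalk, this measure largely picks others with a difference of like size and direction. As the leading genes were chosen on that contrast, the rankings are a description and no evidence of shared regulation or cell type. Nearest to Slc27a6 were the chemokine Cxcl14 at 0.179, the heparan sulfate sulfotransferase Hs3st3a1 at 0.202, the monooxygenase Moxd1 at 0.224, the organic anion transporter Slco4c1 at 0.242 and the potassium channel Kcnn4 at 0.277. Hs3st3a1 has a close paralog with which its reads may be shared. Cxcl14 averaged 47.2 ± 7.55 RPKM in tip and 2.13 ± 1.53 RPKM in stalk (SD, n = 3 each). Nearest to Fabp5 were Adam11 at 0.0389, the cyclin Ccnj at 0.0432, the DNA repair gene Palb2 at 0.0730, the kinase Dyrk3 at 0.0819 and the glucosyltransferase Poglut1 at 0.0878. Nearest to Fabp4 were Glb1l2 at 0.0793, the sphingosine phosphate exporter Spns2 at 0.0868, the phosphodiesterase Pde7b at 0.0932, E130309F12Rik at 0.0970 and Pecam1 at 0.101.

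In the limma fit of tip against stalk over all 12532 symbols with a mean of at least 1 RPKM, 48.6% of symbols were called at an adjusted p under 0.05, with 26.1% higher in tip against 22.5% higher in stalk. Of the 10 fatty acid genes, 6 reached the minimum. Slc27a6, Slc27a3 and Fabp5 were called higher in tip, Slc27a4 and Fabp4 were called higher in stalk, and Slc27a1 was not called. Among all tested symbols, 57.8% had groups with no overlap, against 5 of these 6. As the genes were chosen on this contrast, nothing is read from these counts.

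The rest of fatty acid metabolism was described over 8 lists with 100 genes, of which 94 had values and 75 were tested. Of the 75, limma with Benjamini-Hochberg adjustment over all symbols called 44, of which 5 were higher in tip against 39 higher in stalk, while 31 were not called. That is 58.7% called and 52% higher in stalk, beside 48.6% and 22.5% over all symbols. The median log2 difference was -0.45 over the 75 genes and 0.05 over all tested symbols. The lists were chosen with earlier results of these same libraries known. These shares and the adjusted p-values below therefore describe the lists and are no independent support.

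Most of the tested genes that activate fatty acids were lower in tip. Of 7 tested acyl-CoA synthetases, 5 fell and 1 rose in tip relative to stalk. That is 85.7% called and 71.4% higher in stalk, beside 48.6% and 22.5% over all symbols. Acss1, the mitochondrial acetate synthetase, had 0.412, 0.274 and 0.344 RPKM in tip, against 7.67, 19.2 and 11.1 RPKM in stalk, with a log2 difference of -3.26 (SE 0.28, limma adjusted p = 5.0e-05). Acsl1, the main long-chain synthetase of fat and muscle, averaged 2.32 ± 0.295 RPKM in tip and 7.40 ± 0.337 RPKM in stalk (SD, n = 3 each, limma adjusted p = 9.3e-05). Acsl3, the synthetase of lipid droplets, also fell, at 18.1 ± 2.87 RPKM in tip against 30.2 ± 1.22 RPKM in stalk, by 0.72 on the log2 scale (limma adjusted p = 0.00165). Acsl4, which prefers arachidonic acid, rose, at 18.5 ± 1.71 RPKM in tip against 11.3 ± 0.901 RPKM in stalk, with a log2 difference of 0.66 (limma adjusted p = 0.00181). The 5 that fell were 3 without replicate 3 of tip or replicate 3 of stalk. Of 5 tested acyl-CoA binding proteins, 1 fell in tip, or 2 without replicate 3 of tip or replicate 1 of stalk. That is 20% higher in stalk, beside 22.5% over all symbols, so nothing is read from the count. The gene that fell was Acbd5, which ties peroxisomes to the endoplasmic reticulum, with 7.26 ± 0.253 RPKM in tip and 14.3 ± 0.699 RPKM in stalk (limma adjusted p = 0.000235). Of the other binding protein and Cd36 family genes, 2 of 9 were tested and neither was called, too few to read the count. The lipoprotein receptor Scarb1 had 28.0 ± 0.632 RPKM in tip against 26.7 ± 1.43 RPKM in stalk, with a 95% interval of the log2 difference from -0.14 to 0.27, and the lysosomal Scarb2 an interval from -0.67 to 0.02 (limma).

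Oxidation genes were lower in tip where they were called. Of 19 tested genes of mitochondrial oxidation, 14 fell in tip, none rose and 5 were not called. That is 73.7% called, all higher in stalk, beside 48.6% called and 22.5% higher in stalk over all symbols. The median log2 difference of the 19 genes was -0.57. The largest changes were in Acaa2, the thiolase of the last step, in Acadm, the medium-chain dehydrogenase, and in Acadvl, the very long chain dehydrogenase, which fell by 1.16 on the log2 scale (limma adjusted p = 0.000113). Acaa2 had 26.1, 27.9 and 30.9 RPKM in tip, against 67.9, 84.1 and 73.2 RPKM in stalk (limma adjusted p = 3.9e-05). Acadm averaged 15.9 ± 2.79 RPKM in tip against 42.6 ± 8.26 RPKM in stalk (SD, n = 3 each), with a log2 difference of -1.36 (limma adjusted p = 0.000285). The carnitine transferases Cpt1a and Cpt2, which bring fatty acids into mitochondria, fell by 0.97 and 1.02 on the log2 scale (limma adjusted p = 0.000265 and 0.00372). Of 14 tested genes of peroxisomal oxidation, 8 fell in tip, none rose and 6 were not called, with a median of -0.65. The 8 are 57.1% of those tested, beside 48.6% called and 22.5% higher in stalk over all symbols. The share called is near that of all symbols, so nothing is read from it. Phyh, which oxidises branched chains, fell by 1.51 and the bifunctional enzyme Ehhadh by 0.96 on the log2 scale (limma adjusted p = 2.6e-05 and 0.00646). No library, left out alone, moved the mitochondrial or peroxisomal count by more than 1.5 times.

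**Figure D5:**
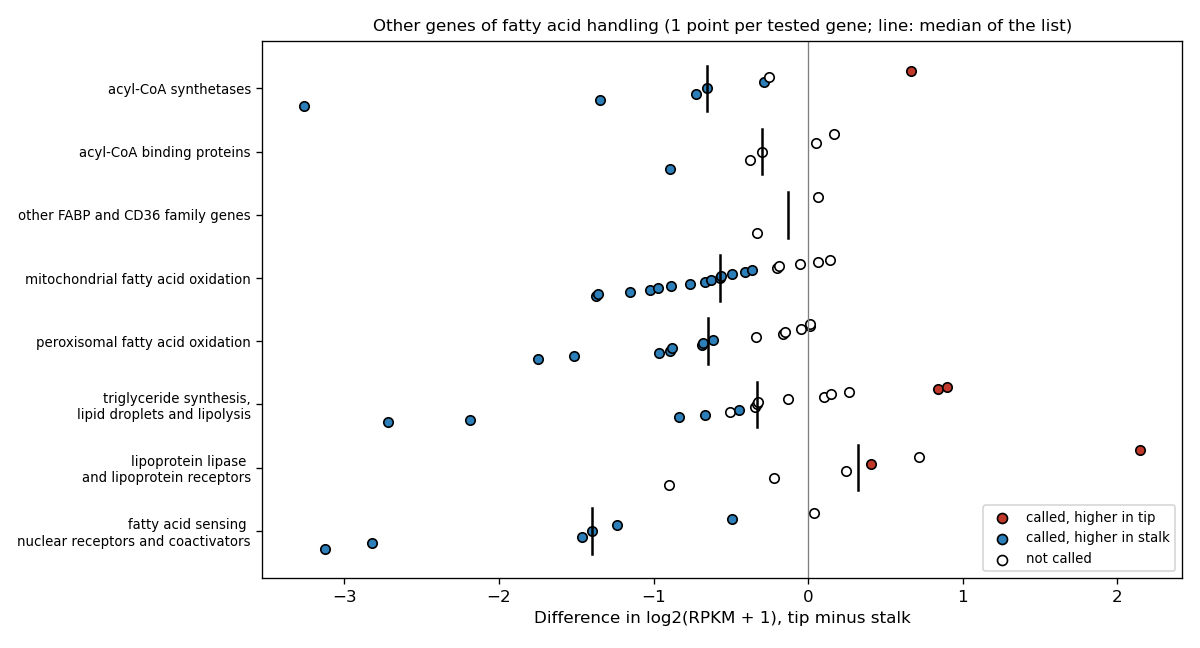
Difference in log2(RPKM + 1), tip minus stalk, of each tested gene in 8 lists of fatty acid metabolism, coloured by call, with a line at each list's median. Called genes of the oxidation and nuclear receptor lists all lie on the stalk side, and Vldlr at 2.15 is the farthest point on the tip side.

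Storage genes were called in both directions, at a share near that of all symbols. Of 15 tested genes of triglyceride synthesis, lipid droplets and lipolysis, 2 rose and 5 fell in tip, and 8 were not called. That is 46.7% called, beside 48.6% over all symbols, so nothing is read from the count. Dgat2, which makes triglyceride, had 2.28, 2.31 and 1.57 RPKM in tip, against 16.4, 20.1 and 20.6 RPKM in stalk, with a log2 difference of -2.72 (SE 0.15, limma adjusted p = 9.4e-06). G0s2, the inhibitor of the lipase Pnpla2, fell to 0.454 ± 0.285 RPKM in tip, against 5.67 ± 1.66 RPKM in stalk (limma adjusted p = 0.000113), and the droplet coat protein Plin3 fell by 0.84 on the log2 scale (limma adjusted p = 0.00408). The phosphatidate phosphatase Lpin2 rose, at 13.5 ± 1.13 RPKM in tip against 6.77 ± 0.547 RPKM in stalk (limma adjusted p = 0.000419). The monoglyceride lipase Mgll rose as well, at 21.4 ± 2.22 RPKM in tip against 11.6 ± 2.61 RPKM in stalk (limma adjusted p = 0.00283).

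Of 6 tested genes for lipoprotein lipase and lipoprotein receptors, 2 rose in tip and none fell. That is 33.3% called, beside 48.6% over all symbols, so nothing is read from the count. Vldlr, the receptor that takes up triglyceride-rich lipoproteins, had 75.7, 43.9 and 69.2 RPKM in tip, against 10.6, 13.9 and 15.1 RPKM in stalk. All tip libraries were higher, with a log2 difference of 2.15 (SE 0.21, limma adjusted p = 9.5e-05). Like Slc27a6, Vldlr was lowest in replicate 2 among the tip libraries and in replicate 1 among the stalk libraries. Slc27a1 and Slc27a4, which were not higher in tip, had that order as well. Lmf1, which lipoprotein lipase needs for folding, had 15.9 ± 2.16 RPKM in tip and 11.8 ± 1.51 RPKM in stalk (limma adjusted p = 0.0416), a call lost without replicate 1 or 3 of tip or replicate 1 or 2 of stalk, with adjusted p up to 0.148. The count of 2 that rose was 1 without replicate 3 of tip or replicate 1 of stalk, and 1 gene of the list fell without replicate 2 of tip. Lipoprotein lipase itself, Lpl, had a log2 difference of 0.24 (limma adjusted p = 0.334).

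Of 7 tested nuclear receptors and coactivators that sense fatty acids or drive their oxidation, 6 fell in tip and 1 was not called, with a median of -1.40. That is 85.7% called, all higher in stalk, beside 48.6% called and 22.5% higher in stalk over all symbols. Pparg, the receptor that switches on Fabp4 in adipocytes, averaged 0.458 ± 0.143 RPKM in tip against 12.1 ± 4.08 RPKM in stalk (SD, n = 3 each, log2 difference -3.12, limma adjusted p = 2.4e-05). The highest tip library had 0.580 RPKM and the lowest stalk library 8.43 RPKM, so the groups lay far apart. Esrra, a receptor that drives mitochondrial genes, averaged 3.83 ± 1.02 RPKM in tip and 32.8 ± 4.29 RPKM in stalk (SD, n = 3 each, limma adjusted p = 1.4e-05). Its coactivator Ppargc1a had 3.14, 5.65 and 3.85 RPKM in tip, against 25.5, 10.7 and 8.02 RPKM in stalk (limma adjusted p = 0.0117). Replicate 1 of stalk was far above the other stalk libraries for Ppargc1a, and the call was lost with no minimum level for testing (limma adjusted p = 0.0586). The retinoid partner Rxra fell by 1.24 on the log2 scale (limma adjusted p = 0.000166), and Ppara, the receptor that drives oxidation in proximal tubule and liver, was too low to test, with 0.374 RPKM on average in tip and 0.676 RPKM in stalk.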

How the data were processed

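Per the labels' protocols, the RNA kit was a Qiagen RNeasy micro kit and the library kit a stranded mRNA one from Kapa. The authors deposited RPKM values in 1 table, for which the submitters' processing notes list Partek, TopHat2, bcl2fastq 2.17 and the build mm10. The annotation and whether counting used strand are not given in the sources used here. Of 93615 rows, 24545 held no value and were dropped; the other 69070 were summed by symbol.

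Symbols averaging at least 1 RPKM were tested with limma 3.58.1 (R 4.3.3) on log2(RPKM + 1), which understates the change of low genes, with a mean-variance trend, no block, two-sided, Benjamini-Hochberg adjustment over all 12532 and a threshold of 0.05. The fit was also run on simulated data with known changes in a small part of the symbols. That setting differs from these libraries, so it is no check of the calls made here. SEs of members are from the library SDs. The 10 genes, the 8 metabolic lists and the marker lists were chosen with earlier results of these data known. Named metabolic genes are up to 3 called genes per list and direction with the largest difference, or the 2 with the highest mean where none was called; Cpt1a, Cpt2, Rxra, Ppara and Lpl, and the markers Myh7, Slc22a8, Cd68 and Laptm5, were named after their values were seen. The values of 1 gene named by the rule are not reported here. Coordinates are from GENCODE M21 (GRCm38, mm10). Copies were found by a shared run of 50 bases. Alternatives were other pseudocounts, filters and scaling, the highest row per symbol, no trend, a replicate block, each library left out, and, added after seeing the data, tip replicate 2 and stalk replicate 1 left out together.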

Additional observations from a re-analysis of the deposited data

How the results depend on the processing

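The log2 difference of Slc27a6 was 4.81 with a pseudocount of 0.1 and 2.60 with a pseudocount of 5, against 3.95 with 1, and 3.61 to 4.25 when 1 library was left out. The number of symbols called, 6089, ranged from 4767 to 5853 when 1 library was left out and was 4642 with a minimum of 5 RPKM. Median ratio scaling gave 3081 symbols higher in tip and 3090 higher in stalk, against 3274 and 2815. The 44 metabolic genes called were 39 to 44 when 1 library was left out, and 46 without tip replicate 2 and stalk replicate 1. Same-numbered libraries did not deviate together (correlations of deviations from the group means -0.30, -0.34 and 0.09), so the numbers are not read as pairs; with the replicate block 5096 symbols and 39 metabolic genes were called. Of the 23 metabolic genes named by the rule, 21 kept their side of the threshold in every alternative run that tested them. Lmf1 and Ppargc1a were the exceptions, and none changed direction. Acsl1, G0s2 and Ehhadh were not tested with the minimum of 5 RPKM. Depth is unknown, so low genes such as Slc27a2, Slc27a5, Cd36 and Fabp3 have no counting error, and their differences depend on the pseudocount.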
